A study of Mus musculus with 12 samples.

Results

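The transcripts of 5 genes that bind or carry zinc and manganese were followed in 12 mouse livers: the metallothioneins Mt1 and Mt2, the importer Slc39a14 and the exporters Slc30a1 and Slc30a10. All array probes matched to these symbols were taken, which gave 9 of the 45281 probes on the array, and 8 of the 9 were detected (detection p under 0.01) in at least 1 liver. Slc30a10 had 4 probes, Slc39a14 had 2, and Mt1, Mt2 and Slc30a1 had 1 each. For genes with several probes, the brightest detected probe was taken for the main comparisons.

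Metallothioneins are small cysteine-rich proteins that hold zinc and copper inside the cell, and in liver their transcripts are known to rise with zinc, glucocorticoids and inflammatory cytokines. Slc39a14 encodes ZIP14, a hepatocyte importer of zinc, manganese and iron not bound to transferrin, whose transcript interleukin-6 is known to raise. Slc30a1 encodes ZnT1, which exports zinc across the plasma membrane, and Slc30a10 encodes a manganese exporter. MTF-1, the zinc-sensing factor encoded by Mtf1, binds metal response elements in the promoters of Mt1, Mt2 and Slc30a1.

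Each of 4 groups held 3 livers, profiled one by one, from mice 7 weeks old of mixed strain, 129/Ola × C57BL/6. Wild-type littermates had eaten an iron-deficient diet for 3 weeks (IDA), while mice lacking Tmprss6, the liver protease that lowers hepcidin, had stayed on an iron-replete diet (KO). Livers were taken 6 hours after saline (untreated, UT) or 0.1 mg/kg LPS, the bacterial endotoxin. KO and IDA livers thus differed in diet as well as genotype, which cannot be told apart here. Values are log2 intensities after background correction and quantile normalization, and a difference was called at an adjusted p under 0.05 (limma, Benjamini-Hochberg over the 11571 genes and unnamed probes tested).

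The probe of Tmprss6, the targeted gene, read 10.29 to 11.21 (UT) and 9.43 to 10.46 (LPS) in IDA mice, against 8.16 to 8.39 and 7.72 to 7.90 in KO mice. Whether this probe lies in the deleted part was not given in the sources used here. The transcript of Xist, made from the inactive X chromosome, marked livers IDA UT 1, KO UT 1 and also KO UT 2 at 11.84 to 12.05, against 4.80 to 6.73 in the other 9, and Eif2s3y of the Y chromosome was low in these 3 (4.80 to 4.94 against 9.27 to 10.16), although the methods give the KO mice as male. Ratios of the members that rest on untreated livers are therefore also given without them, which leaves 2 IDA UT livers and 1 KO UT liver; for further genes this is stated where it ends a call. Of 8 hepatocyte markers 7 were detected in every liver, but Apoa1, Ttr and Cyp2e1 lay close to the top of the range (15.82 to 15.99), and the mean log2 intensity of the other 5 was 10.88 to 11.92. In whole liver, fewer cells of a type and less RNA per cell cannot be told apart.

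Promoter sequences, from 250 bases before to 50 bases after the annotated start, were found for 4 of the 5 genes in RefSeq (build GRCm38.p6). The 3 printed here belong to the known zinc-responsive genes, and capitals mark the core of the metal response element, written TGCACNC or TGCGCNC and searched on both strands.
Mt2 promoter, chr8:94172368-94172667, + strand: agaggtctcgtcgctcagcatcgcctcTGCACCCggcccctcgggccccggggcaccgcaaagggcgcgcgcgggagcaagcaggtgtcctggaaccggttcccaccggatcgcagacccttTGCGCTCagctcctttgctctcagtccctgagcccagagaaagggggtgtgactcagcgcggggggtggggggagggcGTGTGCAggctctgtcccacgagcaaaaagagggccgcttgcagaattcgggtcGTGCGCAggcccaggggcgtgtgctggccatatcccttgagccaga
Mt1 promoter, chr8:94178839-94179138, + strand: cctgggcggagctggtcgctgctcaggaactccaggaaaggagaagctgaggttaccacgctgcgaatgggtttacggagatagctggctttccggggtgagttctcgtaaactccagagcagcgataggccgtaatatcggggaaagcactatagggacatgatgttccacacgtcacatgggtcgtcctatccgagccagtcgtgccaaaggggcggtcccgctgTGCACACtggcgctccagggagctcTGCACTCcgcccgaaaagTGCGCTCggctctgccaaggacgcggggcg
Slc30a1 promoter, chr1:191906531-191906830, + strand: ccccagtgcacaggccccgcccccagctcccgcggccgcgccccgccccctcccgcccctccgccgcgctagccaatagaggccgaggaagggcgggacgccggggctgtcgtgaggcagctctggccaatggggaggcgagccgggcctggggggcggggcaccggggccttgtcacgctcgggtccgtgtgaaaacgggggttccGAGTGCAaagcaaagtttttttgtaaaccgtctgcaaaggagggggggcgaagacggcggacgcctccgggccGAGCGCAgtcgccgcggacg
The Mt2 window held 4 such words, the Mt1 window 3 and the Slc30a1 window 2. In the Mt1 window the words lay from 23 bases before the start onwards, whereas those of Mt2 began 223, 128 and 50 bases before it, with a further one just past it. The Slc30a10 window (chr1:185454598-185454897, + strand) also held 3, of which the farther pair overlapped on opposite strands. At least 1 word was present in 25.7% of all 32851 promoters in the table, and 3 or more in 1.97%. A word for the antioxidant response element, TGACNNNGC on either strand, occurred once in the windows of Mt2 and Slc30a1 and in 12.4% of all promoters. The windows of Mt1 and Slc30a10 did not hold it. These matches describe letters in the windows, and no binding was measured. Bases beyond the windows were not searched, so a word missing from a window may still lie nearby. Whether the annotated start is the one used in these livers was not examined.

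The question of most comparisons was whether livers lacking Tmprss6 answer LPS as iron-deficient wild-type livers do. After LPS, Mt2, Slc39a14 and Slc30a1 were all lower in KO than in IDA livers. In IDA livers LPS raised Mt2, Slc39a14 and Slc30a10, and in KO livers it raised Slc39a14 and lowered Slc30a1. Without LPS no member was called between KO and IDA livers.

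**Figure D1:**
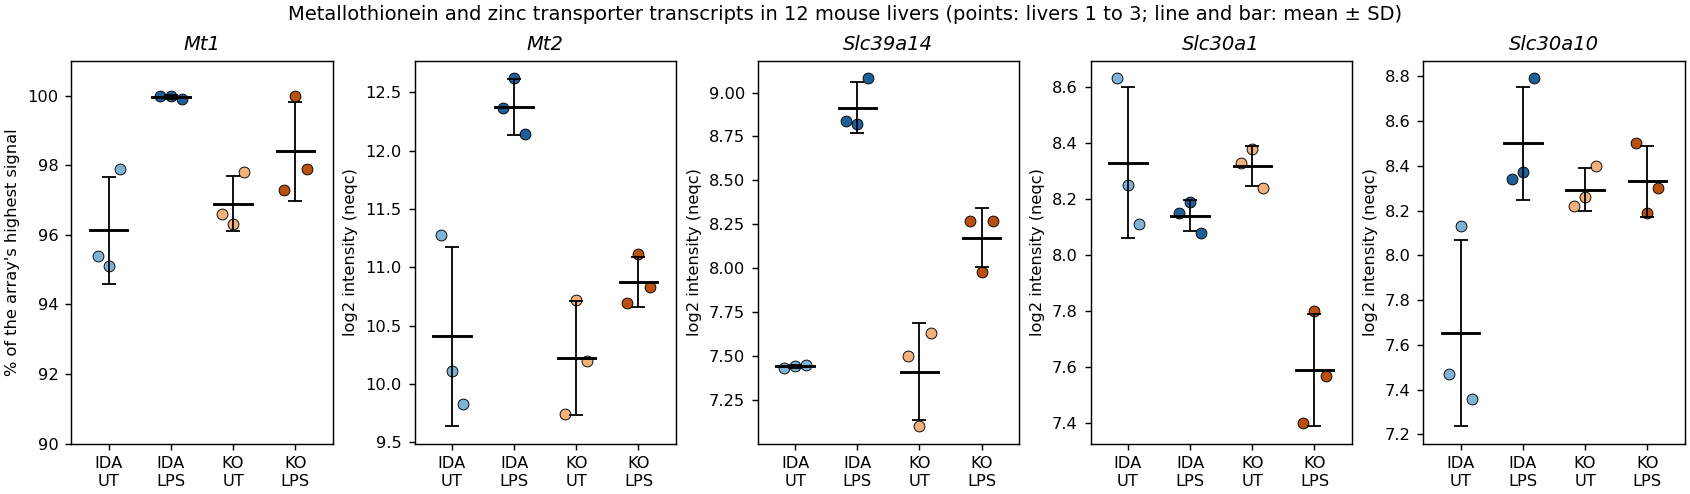
Values of the 5 genes in each liver by group; Mt1 is given as a percentage of the highest signal on its array (axis not starting at 0), the other 4 as log2 intensity of the brightest probe. Points are livers, lines are means and bars are SD (n = 3); the 3 LPS-treated IDA livers lie highest for Mt2 and Slc39a14, the 3 LPS-treated KO livers lowest for Slc30a1, and the 3 untreated IDA livers lowest for Slc30a10.

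Among the storage proteins, Mt1 was at the top of the array's range in every liver. As a share of the brightest probe on the same array, its single probe (ILMN_2596522) reached 95.1 to 97.9% in IDA UT livers and 99.9 to 100% in IDA LPS livers. The corresponding shares were 96.3 to 97.8% for KO UT and 97.3 to 100% for KO LPS livers. The log2 intensities, 15.97 to 16.04 across all 12 livers, therefore bound the transcript from below only, and no ratio was read for Mt1.

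Mt2 was measured by 1 probe below that limit (ILMN_1219154). In IDA livers it read 11.28, 10.11 and 9.83 without LPS, and 12.37, 12.62 and 12.14 with LPS. In KO livers it read 9.74, 10.72 and 10.20 without LPS, and 10.69, 11.11 and 10.83 with LPS. All 3 LPS-treated IDA livers stood above the other 9, and among untreated livers IDA UT 1 stood apart at the upper end. Group means were 10.41 ± 0.77 (SD, n = 3) and 12.37 ± 0.24 in IDA livers, and 10.22 ± 0.49 and 10.88 ± 0.21 in KO livers.

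LPS raised Mt2 3.91-fold in IDA livers (log2 ratio 1.97, SE 0.34, limma adjusted p = 0.000564). In KO livers the log2 ratio was 0.65 (95% interval -0.09 to 1.39, adjusted p = 0.21), and the groups overlapped because KO UT 2 exceeded KO LPS 1. After LPS, Mt2 was 2.83-fold lower in KO than in IDA livers (log2 ratio -1.50, SE 0.34, adjusted p = 0.00702), whereas without LPS the log2 ratio was -0.18 (95% interval -0.93 to 0.56, adjusted p = 0.823). The difference between the LPS responses, the Interaction contrast, was -1.31 (SE 0.48) and missed the threshold (adjusted p = 0.101). It passed when IDA UT 1 was left out (-1.75, adjusted p = 0.0108) and when the 3 Xist-positive livers were left out (-1.73, adjusted p = 0.0193). Without those 3 livers the response was 2.40 in IDA livers (adjusted p = 2.83e-05) and 0.67 in KO livers (adjusted p = 0.138), and the untreated ratio was 0.23 (adjusted p = 0.786).

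Slc39a14, the importer, rose with LPS in both genotypes. Its brighter probe (ILMN_1214514) read 7.43, 7.44 and 7.45 in untreated IDA livers and 8.84, 8.82 and 9.08 after LPS. In KO livers it read 7.50, 7.10 and 7.63 untreated and 8.27, 7.98 and 8.27 after LPS. The 4 groups formed 3 levels, with both untreated groups lowest, LPS-treated KO livers between, and LPS-treated IDA livers highest without overlap.

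LPS raised Slc39a14 2.78-fold in IDA livers (log2 ratio 1.47, SE 0.14, limma adjusted p = 8.96e-06) and 1.70-fold in KO livers (log2 ratio 0.76, SE 0.14, adjusted p = 0.00367). Between KO and IDA livers the log2 ratio was -0.74 after LPS (SE 0.14, adjusted p = 0.00331) and -0.03 without it (adjusted p = 0.936). The Interaction contrast was -0.71 (SE 0.20, adjusted p = 0.0468), just past the threshold. Leaving out 1 liver ended this call for 11 of the 12 livers, all but KO UT 2, with adjusted p from 0.0604 to 0.104 over those 11. Without the Xist-positive livers the response was 1.47 in IDA livers (adjusted p = 8.13e-05) and 0.55 in KO livers (adjusted p = 0.118), the untreated ratio 0.18 (adjusted p = 0.775) and the Interaction contrast -0.93 (adjusted p = 0.0566).

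The second Slc39a14 probe (ILMN_2711839) gave a like pattern after LPS and a different one in untreated livers. It read 6.29, 6.74 and 6.44 in untreated IDA livers, where 1 of 3 was detected, and 8.23, 8.20 and 8.38 after LPS. In KO livers it read 7.58, 6.81 and 7.05 untreated and 7.83, 7.55 and 7.45 after LPS. With this probe every untreated KO liver lay above every untreated IDA liver, which the brighter probe did not show. In a limma fit over all detected probes its log2 ratio was 1.78 for LPS in IDA livers (adjusted p = 1.75e-05), 0.46 for LPS in KO livers (adjusted p = 0.119), -0.66 for KO against IDA livers after LPS (adjusted p = 0.0236) and 0.66 without LPS (adjusted p = 0.0983). Its Interaction contrast was -1.32 (adjusted p = 0.0127), against -0.71 (adjusted p = 0.0517) for the brighter probe in the same fit. The transcripts each probe covers were not resolved here.

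Slc30a1, the zinc exporter, moved in KO livers. In IDA livers its probe read 8.63, 8.25 and 8.11 with saline and 8.15, 8.19 and 8.08 with LPS. In KO livers it read 8.33, 8.38 and 8.24 untreated and 7.40, 7.80 and 7.57 after LPS, so that all 3 LPS-treated KO livers lay below the other 9.

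LPS lowered Slc30a1 1.65-fold in KO livers (log2 ratio -0.73, SE 0.14, limma adjusted p = 0.00463), while in IDA livers the log2 ratio was -0.19 (95% interval -0.51 to 0.13, adjusted p = 0.301). After LPS it was 1.46-fold lower in KO than in IDA livers (log2 ratio -0.55, SE 0.14, adjusted p = 0.0145), and without LPS the ratio was -0.01 (adjusted p = 0.975). The responses themselves were not shown to differ (Interaction -0.54, SE 0.20, adjusted p = 0.114), except when IDA UT 1 was left out (-0.69, adjusted p = 0.0338). The call after LPS was lost without KO LPS 1 (-0.45, adjusted p = 0.0599) and under median scaling (-0.41, adjusted p = 0.0944). Without the Xist-positive livers the response in KO livers was -0.65 (adjusted p = 0.0675) and that in IDA livers -0.04, with an untreated ratio of 0.06 (adjusted p = 0.935) and an Interaction contrast of -0.61 (adjusted p = 0.166).

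Slc30a10, the manganese exporter, was lowest in untreated IDA livers. Its brightest probe (ILMN_2812926) read 7.47, 8.13 and 7.36 in untreated IDA livers, below each of the other 9. After LPS the IDA livers read 8.34, 8.37 and 8.79. KO livers read 8.22, 8.26 and 8.40 untreated and 8.50, 8.19 and 8.30 after LPS, within the same range in both states.

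LPS raised Slc30a10 1.80-fold in IDA livers (log2 ratio 0.85, SE 0.20, limma adjusted p = 0.00392), and the log2 ratio in KO livers was 0.03 (95% interval -0.39 to 0.46, adjusted p = 0.927). In untreated livers KO exceeded IDA by 0.64 (95% interval 0.21 to 1.07), which missed the threshold (adjusted p = 0.115) although the groups did not overlap. That ratio passed without IDA UT 2 (0.88, adjusted p = 0.0374), as did the Interaction contrast, which was -0.81 (adjusted p = 0.0837) with all livers and -1.05 (adjusted p = 0.019) without it. After LPS the KO against IDA ratio was -0.17 (adjusted p = 0.54). Without the Xist-positive livers the response in IDA livers was 0.75 (adjusted p = 0.0301) and in KO livers -0.07 (adjusted p = 0.926), the untreated ratio 0.66 (adjusted p = 0.458) and the Interaction contrast -0.83 (adjusted p = 0.256).

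The further Slc30a10 probes were dimmer. ILMN_2445236 rose in LPS-treated IDA livers by 0.50 (limma fit over all detected probes, adjusted p = 0.0125) and had a ratio of 0.03 in KO livers, although it was detected in only 1 of 3 untreated IDA livers. ILMN_1243252 was detected in no untreated IDA liver and in 2 of 3 after LPS. Taking the lowest detected intensity of each array for the undetected group gave a 1.16-fold rise (fitted log2 ratio 0.93, adjusted p = 0.00416). That is no strict lower bound, since the mean after LPS includes IDA LPS 2, which read 6.52 and was not detected. In KO livers the ratio of this probe was 0.17 (adjusted p = 0.627). All 3 detected probes thus rose in IDA livers and were not called in KO livers, and ILMN_1224416, the fourth, was detected on no array.

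**Figure D2:**
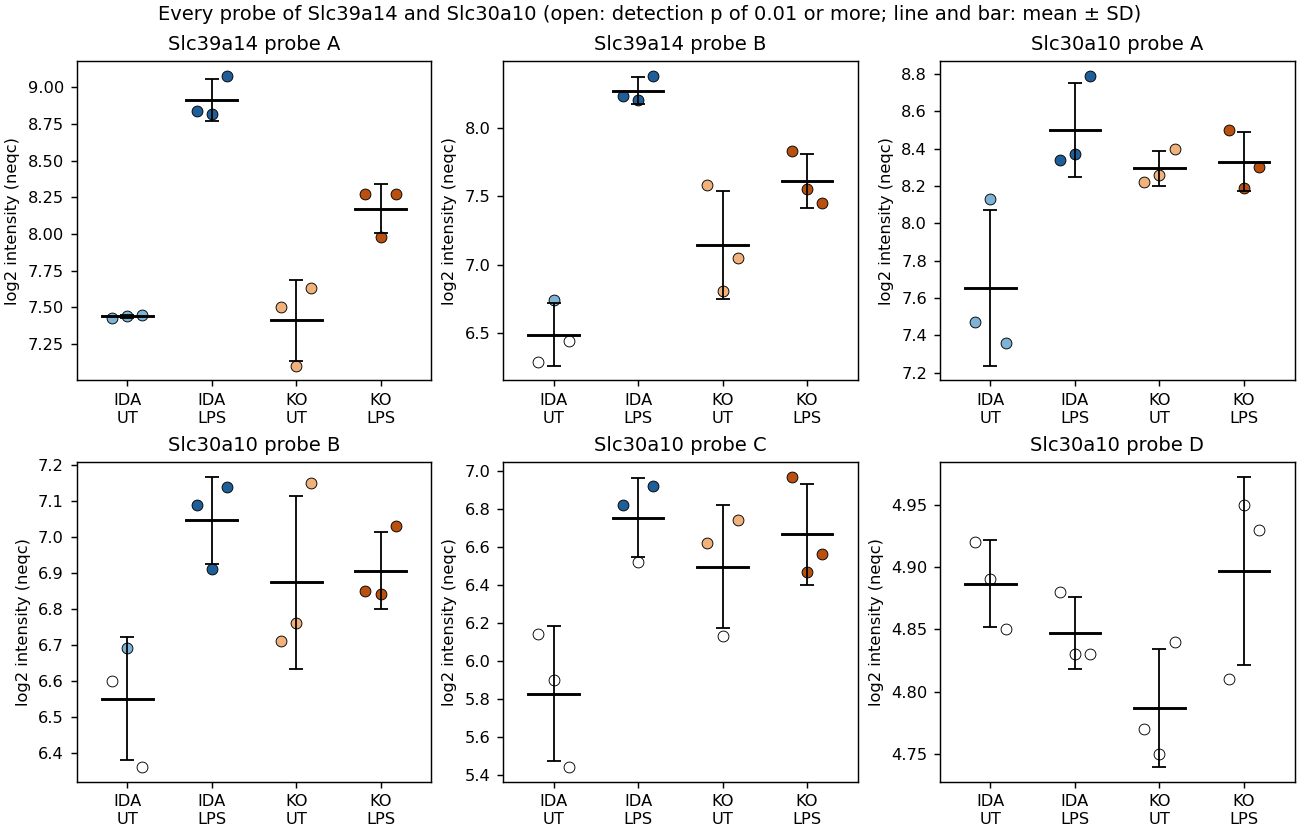
Log2 intensity of each of the 2 Slc39a14 and 4 Slc30a10 probes in every liver, ordered from bright (A) to dim; filled points were detected, open points were not, lines are means and bars are SD (n = 3). For Slc39a14, probe B separates the untreated IDA and KO livers and probe A does not. For Slc30a10, probes A to C have their lowest group mean in untreated IDA livers, and probe D is detected in no liver.

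Counted together, 3 of the 4 members with a readable ratio were lower in KO than in IDA livers after LPS and 0 higher, beside 29.8% of all features called (13.7% lower and 16.1% higher). LPS in IDA livers raised 3 of 4 and lowered 0, where 47.9% of all features were called (21.9% higher and 26% lower). LPS in KO livers raised 1 and lowered 1, where 18.8% were called (10.2% higher and 8.57% lower). In untreated livers 0 of 4 were called by limma, with the authors' intensities as with the neqc values, against 2.5% of all features (1.59% higher and 0.907% lower). By the brightest probes, Slc30a10 alone had an unadjusted limma p under 0.05 (0.00712). The second Slc39a14 probe had an unadjusted p of 0.00494 in the limma fit over all detected probes. The share of all features at that level is not given here. For Interaction 1 was called lower and 0 higher, against 10.9% of all features (5.49% lower and 5.46% higher). Groups did not overlap for 3 of the 4 members after LPS (46.4% of all features), 3 for LPS in IDA livers (56%), 2 for LPS in KO livers (37%) and 1 in untreated livers (22.3%). The median log2 ratio of the 4 genes was -0.65 for KO against IDA livers after LPS (all features 0.02), 1.16 for LPS in IDA livers (all features -0.06), 0.34 for LPS in KO livers (all features -0.04) and -0.76 for Interaction (all features 0.03). The comparisons share livers, and 4 genes do not make a test of the group.

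**Figure D3:**
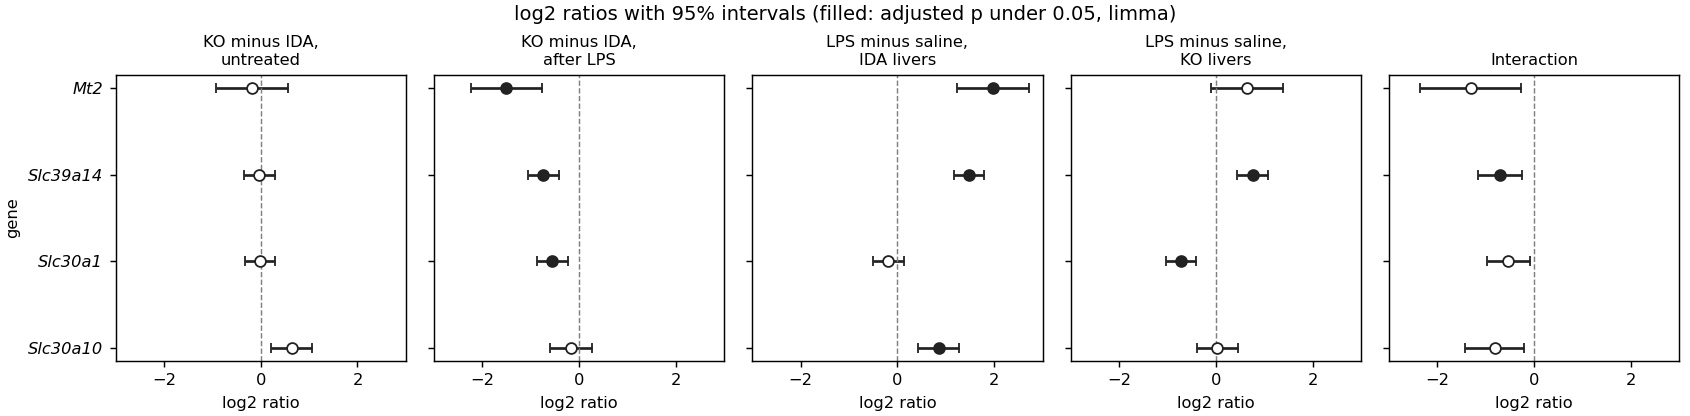
Log2 ratios of Mt2, Slc39a14, Slc30a1 and Slc30a10 (points) with 95% intervals (bars) in 4 pairwise comparisons and the Interaction contrast; filled points have an adjusted p under 0.05 (limma). After LPS 3 of the 4 points for KO minus IDA are filled and negative, and in untreated livers none is filled.

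The Genotype contrast, the sum of the untreated and the LPS-treated KO minus IDA differences, called 2 of the 4 genes lower and 0 higher, beside 24.9% of all features (11.8% lower and 13.1% higher). Mt2 had a sum of -1.68 (SE 0.48, limma adjusted p = 0.0256), of which the LPS-treated livers gave -1.50. The call ended when IDA LPS 2 (-1.56, adjusted p = 0.055), KO UT 1 (-1.44, adjusted p = 0.0544) or KO LPS 1 (-1.59, adjusted p = 0.0571) was left out, and the sum was -1.27 (adjusted p = 0.0279) without the Xist-positive livers. Slc39a14 had a sum of -0.77 (adjusted p = 0.0192) by its brighter probe, 0.00 (adjusted p = 0.995) by the other in the fit over all detected probes, and by the brighter probe -0.56 (adjusted p = 0.137) without the Xist-positive livers. The sum for Slc30a1 was -0.56 (adjusted p = 0.0638) and passed without IDA UT 3 (-0.67, adjusted p = 0.0395) or KO LPS 2 (-0.67, adjusted p = 0.0418). That for Slc30a10 was 0.47 (adjusted p = 0.236) and passed without IDA UT 2 (0.71, adjusted p = 0.0414). Without the Xist-positive livers these sums were -0.49 (adjusted p = 0.188) and 0.48 (adjusted p = 0.427).

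Other genes of metal handling were taken as whole families, and their counts are to be read against the shares of all features called (47.9% for LPS in IDA, 18.8% for LPS in KO, 29.8% for KO against IDA after LPS). Of the metallothioneins, Mt3 and Mt4 were detected on no array. Of 13 further ZIP importers, 9 could be tested: 3 rose and 2 fell with LPS in IDA livers, 2 rose and 0 fell in KO livers, and after LPS 3 were higher and 2 lower in KO than in IDA livers. Of 8 further ZnT transporters, 4 could be tested: 3 rose and 1 fell in IDA livers, 2 rose and 1 fell in KO livers, and 2 were lower and 0 higher in KO livers after LPS. Of 8 regulators, copper and metal transporters and chaperones, all tested, 2 rose and 1 fell in IDA livers, 2 rose in KO livers, and 2 were lower in KO livers after LPS. For Interaction 0 of the ZIP importers, 1 of the ZnT transporters (lower) and 0 of the regulators were called, beside 10.9% of all features. In untreated livers 0 of these 21 genes were called between KO and IDA livers by limma, with neqc values (2.5% of all features) or the authors' intensities (2.13%). An unadjusted p under 0.05 was found for 4 of them, and the share of all features at that level is not given here.

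Slc30a7, which loads zinc into the Golgi, had ratios close in size to those of Slc39a14. In IDA livers it read 8.83, 8.93 and 8.79 with saline and 10.28, 10.24 and 10.51 with LPS. In KO livers it read 8.43, 8.75 and 8.80 untreated and 9.21, 9.52 and 9.47 after LPS, so that LPS-treated KO livers again lay between the untreated and the LPS-treated IDA livers. Its log2 ratios were 1.49 for LPS in IDA livers (limma adjusted p = 4.42e-06), 0.74 in KO livers (adjusted p = 0.00265) and -0.94 for KO against IDA livers after LPS (adjusted p = 0.000529). The Interaction contrast was -0.75 (adjusted p = 0.0275), and it was lost without IDA UT 3, IDA LPS 3, KO UT 2, KO UT 3 or KO LPS 1, at adjusted p up to 0.0665, without the Xist-positive livers (-0.88, adjusted p = 0.0716) and under median scaling (-0.71, adjusted p = 0.0938). Slc30a5, a transporter of the early secretory pathway, rose by 1.50 in IDA and 1.08 in KO livers and was 0.57 lower on the log2 scale in KO livers after LPS (log2 ratio -0.57, adjusted p = 0.00954). Its Interaction contrast was not called (-0.43, adjusted p = 0.184). Its partner Slc30a6 rose by 0.52 in IDA livers (adjusted p = 0.00318). Slc30a9, a mitochondrial transporter, was called lower with LPS in both genotypes, but it was detected in none of the 6 LPS-treated livers, in which it read 5.90 to 6.27, and in 2 of 3 untreated IDA livers. Taking the lowest detected intensity of each array, Slc30a9 was at least 1.32-fold lower in LPS-treated KO livers (limma adjusted p = 0.0291 for the fitted ratio). The same step gave 1.01-fold in IDA livers (adjusted p = 0.00953 for the fitted ratio). That value is no strict bound, since the untreated mean includes IDA UT 2, which read 6.35 and was not detected. The call in KO livers was lost without KO UT 1, KO UT 3, KO LPS 1 or KO LPS 2 (adjusted p up to 0.111), with the authors' intensities (fitted ratio -0.28, adjusted p = 0.0538, against -0.59) and without background correction (-0.26, adjusted p = 0.0583). In IDA livers these settings gave fitted ratios of -0.29 and -0.27, against -0.61. Without the Xist-positive livers the KO response missed the threshold for Slc30a7 (0.60, adjusted p = 0.0948), Slc30a9 (-0.74, adjusted p = 0.0995), Slc39a6 (0.71, adjusted p = 0.0567) and Slc39a7 (0.61, adjusted p = 0.123).

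Among the importers, Slc39a6 of the plasma membrane rose by 1.23 in IDA livers (limma adjusted p = 2.81e-05) and by 0.89 in KO livers (adjusted p = 0.00115), and its ratio between KO and IDA livers after LPS was -0.75 (adjusted p = 0.00266). Its untreated ratio was -0.41 (adjusted p = 0.152), and its Interaction contrast was not called (-0.33, adjusted p = 0.315). Slc39a7, which releases zinc from the endoplasmic reticulum, rose by 1.03 and 0.64, with a ratio of -0.44 after LPS (adjusted p = 0.0228) that was lost without IDA LPS 1 (-0.38, adjusted p = 0.0788), IDA LPS 3 (-0.46, adjusted p = 0.0508) or KO LPS 1 (-0.32, adjusted p = 0.089). That call was also lost under median scaling (-0.41, adjusted p = 0.054) and when only the compared groups were fitted (-0.44, adjusted p = 0.0515). Slc39a8, a zinc and manganese importer related to Slc39a14, went the other way. It fell by 0.91 in IDA livers (adjusted p = 0.00288) and was higher in KO than in IDA livers after LPS by 0.73 (adjusted p = 0.0178), which was lost without IDA LPS 1 (0.56, adjusted p = 0.0691), the one LPS-treated IDA liver in which it was not detected, or without KO LPS 1 (0.59, adjusted p = 0.0724). These ratios of -0.91 and 0.73 shrank to -0.51 and 0.40 without background correction and to -0.53 and 0.41 with the authors' intensities, and all 4 of these values passed. Slc39a4, the intestinal zinc importer, rose by 0.60 in IDA livers (adjusted p = 0.0367), and this call was lost without IDA UT 1 (0.34, adjusted p = 0.135), IDA LPS 2 (0.52, adjusted p = 0.111) or IDA LPS 3 (0.59, adjusted p = 0.0828), without the Xist-positive livers (0.34, adjusted p = 0.079) and under median scaling (0.49, adjusted p = 0.0998).

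Mtf1, the zinc-sensing factor, went from 8.02, 8.33 and 8.49 to 9.45, 9.22 and 9.16 with LPS in IDA livers, and from 8.30, 7.98 and 8.49 to 8.62, 8.70 and 8.63 in KO livers. It rose by 1.00 in IDA livers (limma adjusted p = 0.000271), with a ratio of 0.39 in KO livers (adjusted p = 0.101) and of -0.63 between KO and IDA livers after LPS (adjusted p = 0.0106). Its Interaction contrast was not called (-0.60, adjusted p = 0.0989). Slc11a2, the divalent metal transporter DMT1, had the largest LPS ratios of these further genes in both genotypes. Its values went from 9.50, 9.54 and 9.70 to 11.79, 12.02 and 12.07 with LPS in IDA livers, and from 9.47, 8.44 and 9.07 to 10.60, 10.63 and 10.92 in KO livers. These are rises of 2.38 (adjusted p = 4.57e-06) and 1.72 (adjusted p = 0.000248), and the ratio between LPS-treated groups was -1.24 (adjusted p = 0.0016). Without LPS the KO against IDA ratio of Slc11a2 was -0.58 (adjusted p = 0.181). The responses were not shown to differ (Interaction -0.66, adjusted p = 0.187). Slc31a1, the copper importer, rose by 0.32 in KO livers (adjusted p = 0.0338), and Ccs, the copper chaperone of superoxide dismutase, fell by 0.30 in IDA livers (adjusted p = 0.0227). Neither call held throughout when single livers were left out, although the ratios ran only from 0.28 to 0.38 and from -0.36 to -0.23. That of Slc31a1 was lost without any one of KO UT 1, KO UT 3 or the 3 KO LPS livers (adjusted p up to 0.103). That of Ccs was lost without IDA UT 1, IDA UT 2 or IDA LPS 3 (adjusted p up to 0.0875). Without the Xist-positive livers the ratios of Slc31a1 and Ccs were 0.36 (adjusted p = 0.179) and -0.29 (adjusted p = 0.0827), and under median scaling 0.18 (adjusted p = 0.391) and -0.49 (adjusted p = 0.0102).

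**Figure D4:**
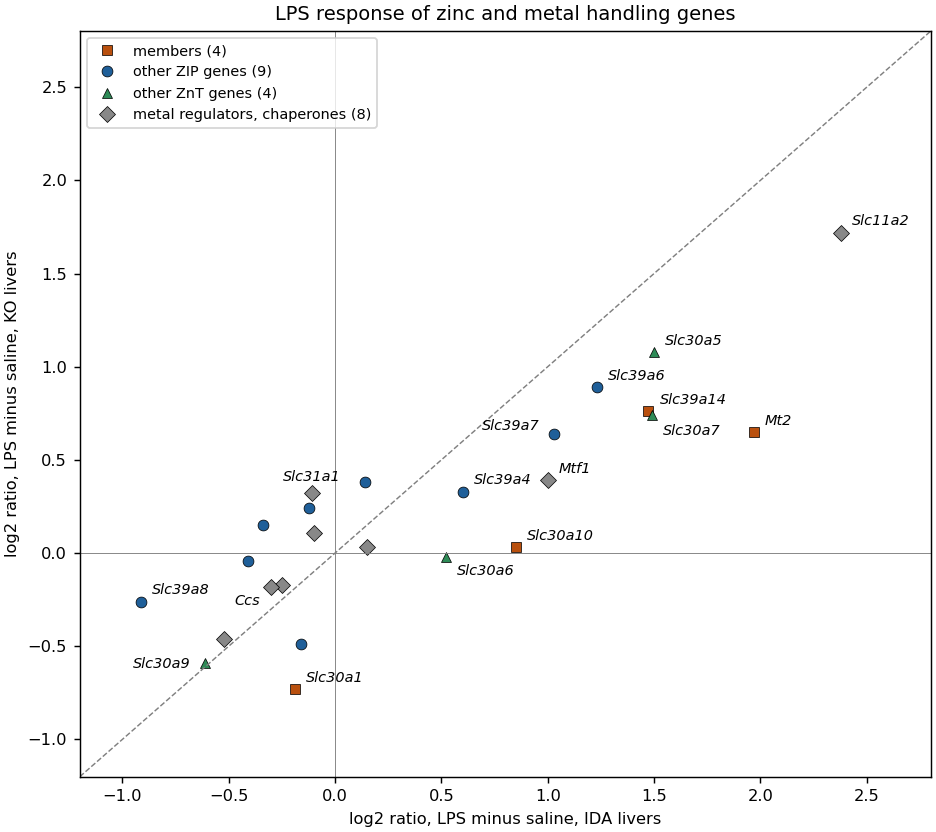
Log2 ratio of LPS against saline in IDA livers (horizontal) and in KO livers (vertical) for 4 members, 9 further ZIP genes, 4 further ZnT genes and 8 metal regulators and chaperones; the dashed line marks equal responses. Mt2 (1.97 and 0.65) and Slc30a10 (0.85 and 0.03) lie well below the line, and Slc30a1 (-0.19 and -0.73) lies below it on the negative side. Slc39a14 (1.47 and 0.76) and Slc30a7 (1.49 and 0.74) also lie below it. Of these genes the Interaction contrast called Slc39a14 and Slc30a7 only.

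Markers of cell types were read in the same comparisons. The mean log2 intensity of 5 tested neutrophil markers (of 10 listed) was 6.36 to 7.53 (UT) and 9.66 to 9.89 (LPS) in IDA livers, and 6.78 to 7.16 and 8.14 to 8.89 in the KO groups. Of these 5, 4 rose with LPS in each genotype, where 21.9% of all features were higher in IDA livers and 10.2% in KO livers. After LPS 2 of them were lower in KO than in IDA livers, where 13.7% of all features were lower. The neutrophil granule genes Mpo, Elane, Ngp and Camp were detected on no array. Of 6 tested Kupffer cell markers, 5 were higher in KO than in IDA livers after LPS (mean log2 intensity 8.64 to 9.12 against 8.03 to 8.25), as were 3 of 7 endothelial, 2 of 7 stellate and 2 of 3 erythroid markers, where 16.1% of all features were higher. Of the 8 hepatocyte markers, 3 of them near the top of the range, 1 was higher and 0 lower in that comparison. The marker called was Alb (log2 ratio 0.65, limma adjusted p = 0.0134), whose probe read only 7.19 to 8.58 over all livers. Tat was dim and not detected in every liver, so these markers say little about hepatocytes. With LPS in IDA livers 3 of 8 hepatocyte, 3 of 6 Kupffer, 4 of 7 endothelial and 2 of 7 stellate markers fell, where 26% of all features fell. In that comparison 1 Kupffer and 1 endothelial marker rose, where 21.9% of all features rose. In KO livers 2 hepatocyte, 2 Kupffer, 2 endothelial and 0 stellate markers fell and 1 Kupffer marker rose. There 8.57% of all features fell and 10.2% rose. Of the 3 tested erythroid markers 0 were called with LPS in either genotype. Without LPS 0 of the 3 were called between KO and IDA livers. Their log2 ratios there were 1.32 for Hba-a1 (limma adjusted p = 0.0556), 0.94 for Slc4a1 (adjusted p = 0.47) and 0.28 for Alas2 (adjusted p = 0.67). The Genotype contrast called Hba-a1 and Slc4a1 higher, with sums of 2.24 and 3.32, where 13.1% of all features were higher. The part of these cells in the values of Mt2, Slc39a14, Slc30a1 and Slc30a10 was not tested.

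The named genes whose log2 intensity ran most closely with each member over the 12 livers, given as a description since the livers fall into 4 groups, were Dyrk3, Asns and 6430548M08Rik for Mt2 (Pearson r 0.966, 0.964 and 0.957). For Slc39a14 they were Stx18, Surf4 and Heatr1 (0.985, 0.983 and 0.981). For Slc30a1 they were Sema3b, Ackr2 and Zfp654 (0.905, 0.890 and 0.890), and for Slc30a10 Epha2, Olfr1381 and Prpf38b (0.892, 0.881 and 0.875). Within groups, after subtracting each group's mean, r was 0.37 to 0.89 for these 12 pairs.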

How the data were processed

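RNA of 12 livers was hybridized by the authors to Illumina MouseWG-6 v2 BeadChips, read with GenomeStudio and normalized by cubic spline; which chip held which liver is not given in the sources used here. For each probe, the deposited intensity is the mean over beads before normalization, and the deposited detection p-value goes with it; both were used, and the authors' normalized intensities served as an alternative. No column of sample values was left unused. Probes detected numbered 12641 to 14423 per liver, at a median signal of 129.7 to 151, and the number of arrays limits the precision.

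Background correction and quantile normalization used neqc with an offset of 16 (R 4.3.3, limma 3.58.1), and probes were kept where any array gave a detection p under 0.01. The brightest probe of each symbol, plus 2264 unnamed probes, entered one linear model of 4 group means (empirical Bayes), with 6 contrasts and Benjamini-Hochberg adjustment within each. Symbols came from GEO's platform annotation, updated through RefSeq gene IDs. Probe sequences were not used here, so cross-hybridization between Mt1 and Mt2 was not examined. Replicates are separate mice. The steps were tested on simulated data.

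The members and lists were chosen with earlier results of these data known. Named are every probe of the members, Tmprss6, Xist and Eif2s3y, at most 4 called genes of each further list, ranked by absolute log2 ratio, and the 3 genes most like each member. Likeness was not read for Mt1. Alternatives were other normalizations, filters, probe choices, moderation, a replicate block, leaving out each liver and leaving out or modelling the Xist-positive livers. Plots used Python 3.11.15 and matplotlib 3.10.9.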

Additional observations from a re-analysis of the deposited data

Results flagged for a closer look

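The LPS response of Slc39a14 differed between KO and IDA livers by a test of the difference itself, with a log2 ratio of -0.71 for the Interaction contrast (limma adjusted p = 0.0468), being smaller in KO livers (0.76) than in IDA livers (1.47). The LPS response of Slc30a7, the Golgi zinc transporter, differed in the same way, with a log2 ratio of -0.75 (limma adjusted p = 0.0275), from 1.49 in IDA livers to 0.74 in KO livers. Both differences fell short of the threshold under median scaling (-0.64, adjusted p = 0.102, and -0.71, adjusted p = 0.0938) and without the Xist-positive livers (-0.93, adjusted p = 0.0566, and -0.88, adjusted p = 0.0716). Leaving out 1 liver ended the call of Slc39a14 for 11 of 12 livers (adjusted p up to 0.104) and that of Slc30a7 for 5 (adjusted p up to 0.0665).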

How the results depend on the processing

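With the authors' intensities, without background correction, under other moderation or with a filter of at least 3 arrays, the number of members called was the same as in the main comparisons. Asking also for an absolute log2 ratio over 1 left 1 called for KO against IDA livers after LPS (main 3), 2 for LPS in IDA livers (main 3), 0 for LPS in KO livers (main 2), 0 for Interaction (main 1) and 1 for Genotype (main 2). Median scaling gave 2 for KO against IDA livers after LPS, 0 for Interaction and 1 for Genotype, where 25%, 7% and 20% of all features were called. Interaction gave 0 without a filter on dim probes (3.41% of all features) and 0 when every detected probe was tested (9.81%), and Genotype gave 1 with the mean over probes (25.1%) and 3 with a term for the Xist-positive livers (23.4%). Without those livers LPS in KO livers gave 0 (7.06%) and Genotype 1 (13.4%). Leaving out each liver in turn gave 0 to 1 members called in untreated livers (0.761 to 3.77% of all features), 2 to 3 after LPS (21.7 to 31.4%), 3 for LPS in IDA livers (42.5 to 48.2%), 2 for LPS in KO livers (11.6 to 20.4%), 0 to 2 for Interaction (6.92 to 10.8%) and 1 to 3 for Genotype (19.3 to 24.4%).

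Signs turned only where no difference had been called. The untreated ratio of Mt2 was 0.23 without the Xist-positive livers. That of Slc39a14 was 0.02 under median scaling, 0.32 with the mean over probes, 0.18 without the Xist-positive livers and 0.03 with a term for them, and that of Slc30a1 was 0.03 under median scaling and 0.06 without those livers. The ratio of Slc30a10 for LPS in KO livers was -0.07 without them and -0.11 with the term. Leaving out single livers, these ratios ran from -0.47 to 0.25, -0.14 to 0.12, -0.12 to 0.14 and -0.05 to 0.11.

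Livers that share a replicate number showed little common deviation (r from -0.115 to 0.242 over 18 pairs, 3 of them over 0.1). Pairs with different numbers ran from -0.323 to 0.281. Whether the numbers pair mice cannot be settled from 3 livers per group. With a replicate block 0, 3, 3, 2, 1 and 2 members were called in the 6 comparisons, as without it. Of 31 called results of the named genes of the further lists, none reversed under 738 alternative values and 65 of those values missed the threshold. The calls of Slc39a11 and Slc39a13, which were not among the named genes, were not followed in this way. For KO against IDA livers after LPS these lay close to the threshold (limma adjusted p = 0.0461 and 0.0439). The cause of the changes was not tested. The dynamic range of the array limits Mt1, and dim signals limit the further probes of Slc30a10.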
